A study of Mus musculus with 14 samples.

Results

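The genes described here are 58 listed genes of DNA replication and mitosis, the steps by which a dividing cell copies its chromosomes and then separates the copies. A member was measured by the array probe set annotated to that gene symbol alone, and, where a gene had several such sets, by the one with the highest mean over the 14 arrays. In this way 57 of the 58 were measured, 19 of them replication genes and 38 mitosis genes, among 19937 genes with a probe set of 1 symbol. Ccnb1 was not analysed here, because no row carried it as its single symbol.

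The arrays measured total RNA from whole epididymal fat pads of male C57BL6/J mice, each array a biological replicate according to the labels, which do not say whether animals were pooled. Feeding began at 8 weeks of age and lasted 24 weeks, on the diet labelled ND (normal) or on a Western diet with 42% milk fat (labelled HFD). The animals were wild type (WT) or EKO, a genotype that the labels tie to apolipoprotein E. The 4 groups were normal-diet WT (n = 3), Western-diet WT (n = 3), normal-diet EKO (n = 4) and Western-diet EKO (n = 4). The labels name no transgene or Cre driver and no further agent.

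Before a cell copies its DNA, the Mcm helicase is loaded at origins by Cdc6 and Cdt1 and is then activated together with the Gins complex, while Rrm1, Rrm2, Tyms and Tk1 supply deoxynucleotides and Pcna clamps the polymerases to the template. In mitosis, cyclins A and B with Cdk1 start the process, kinetochores attach chromosomes to the spindle under the watch of a checkpoint, kinesin motors build and divide the spindle, and the anaphase-promoting complex starts separation. Mature adipocytes are regarded as rarely dividing, and dividing cells of obese visceral fat are known to include adipocyte progenitors, endothelial cells and macrophages. Many genes of replication are controlled through E2F sites, whereas mitosis genes are often controlled through a CCAAT box and a downstream element called the CHR, TTTGAA.

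Promoter sequences are shown because this division between E2F-type and CHR-type control follows the comparison of replication with mitosis genes. The stretches run 5′ to 3′ on the gene's strand and end just before the RefSeq gene start (GRCm38.p6). Each holds 200 bases, and capitals mark any of 4 motifs on either strand. The motifs are the CCAAT box, the CHR with the letters TTTGAA, and the E2F-type letters TTTGGCG and, as a further variant, GGCGGGA. Read on the opposite strand the CCAAT box appears as ATTGG and the CHR as TTCAAA. The mitosis genes Spc25, Mki67, Cdk1, Top2a and Kif11 all rose in WT fat on the Western diet, as did the replication genes Rrm2 and Mcm6, while Pcna did not pass the test.
Spc25, chr2:69206214-69206413, minus strand: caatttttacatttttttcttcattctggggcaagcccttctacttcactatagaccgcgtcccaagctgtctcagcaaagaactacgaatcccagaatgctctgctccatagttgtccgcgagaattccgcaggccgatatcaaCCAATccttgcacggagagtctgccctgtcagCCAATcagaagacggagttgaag
Mki67, chr7:135716380-135716579, minus strand: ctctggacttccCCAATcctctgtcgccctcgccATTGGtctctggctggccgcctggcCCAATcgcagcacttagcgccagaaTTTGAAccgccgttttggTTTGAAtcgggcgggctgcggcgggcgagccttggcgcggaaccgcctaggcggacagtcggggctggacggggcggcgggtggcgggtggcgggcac
Cdk1, chr10:69352913-69353112, minus strand: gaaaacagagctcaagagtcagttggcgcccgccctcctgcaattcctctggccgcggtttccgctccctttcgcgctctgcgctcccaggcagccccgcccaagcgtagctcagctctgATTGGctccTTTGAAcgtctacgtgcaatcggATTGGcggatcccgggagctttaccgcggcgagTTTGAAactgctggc
Top2a, chr11:99024190-99024389, minus strand: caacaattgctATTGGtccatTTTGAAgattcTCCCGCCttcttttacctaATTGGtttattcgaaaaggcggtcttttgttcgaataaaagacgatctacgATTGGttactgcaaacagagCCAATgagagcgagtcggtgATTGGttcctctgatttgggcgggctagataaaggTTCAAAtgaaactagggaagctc
Kif11, chr19:37376182-37376381, plus strand: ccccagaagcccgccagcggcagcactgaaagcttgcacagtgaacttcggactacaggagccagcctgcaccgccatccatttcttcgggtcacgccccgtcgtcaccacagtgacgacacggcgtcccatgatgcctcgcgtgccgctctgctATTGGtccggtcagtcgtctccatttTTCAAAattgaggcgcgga
Rrm2, chr12:24708054-24708253, plus strand: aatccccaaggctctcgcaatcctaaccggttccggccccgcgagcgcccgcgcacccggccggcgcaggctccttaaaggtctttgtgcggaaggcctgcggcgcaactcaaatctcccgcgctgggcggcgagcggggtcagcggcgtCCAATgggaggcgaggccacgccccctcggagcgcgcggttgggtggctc
Mcm6, chr1:128359706-128359905, minus strand: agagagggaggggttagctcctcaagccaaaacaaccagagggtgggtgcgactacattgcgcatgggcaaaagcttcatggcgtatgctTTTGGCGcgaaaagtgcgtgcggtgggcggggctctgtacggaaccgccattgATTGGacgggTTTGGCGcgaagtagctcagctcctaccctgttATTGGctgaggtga
Pcna, chr2:132253181-132253380, minus strand: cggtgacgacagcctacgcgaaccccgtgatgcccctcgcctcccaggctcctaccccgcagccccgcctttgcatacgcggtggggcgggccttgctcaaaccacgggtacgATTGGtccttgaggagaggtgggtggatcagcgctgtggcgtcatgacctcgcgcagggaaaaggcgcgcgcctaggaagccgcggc

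In these stretches Cdk1, Mki67, Top2a and Kif11 held both CCAAT and TTTGAA. Spc25, Rrm2 and Pcna held CCAAT without TTTGAA. Mcm6 held a pair of TTTGGCG matches, the E2F-type letters, beside CCAAT on the opposite strand. In Cdk1 the TTTGAA nearest the gene started 15 bases before the gene start, and in Kif11 and Top2a it started 19 and 23 bases before it.

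RefSeq promoter entries were found for 46 of the 57 members, and all were searched over the 250 bases before the gene start on both strands. CCAAT occurred in 32 of the 46 (69.6%), against 38.8% of the 15613 tested genes with an entry. By class it occurred in 9 of 15 replication and 23 of 31 mitosis members. TTTGAA occurred in 11 of the 46 members, against 15.7% of tested genes. Only 1 of these was a replication gene (Mcm2), and 10 of 31 mitosis members held it. TTTGGCG was found in 2 members, the replication genes Mcm5 and Mcm6, against 1.88% of tested genes. GGCGGGA, whose letters can overlap TTTGGCG, was found in 9, against 15.6%. By class, 2 of 15 replication (13.3%) and 7 of 31 mitosis members (22.6%) held GGCGGGA. These are matches of letters and were not tested as sites.

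Array values are given on a log2 scale, on which a difference of 1 is a 2-fold change of signal. Levels of different genes were not set against each other, since probe sets differ in brightness. The genotype label was borne out by Apoe, which ranged from 13.13 to 13.65 in WT and from 9.46 to 10.26 in EKO arrays. Adipocyte markers had mean levels of 12.90 to 13.17 per array, and epididymis and germ cell markers 6.60 to 7.12. Odorant and vomeronasal receptor probe sets, which are not expected to be expressed in fat, gave a background that fell into 9 arrays at 6.29 to 6.56 and 5 arrays at 6.75 to 6.84. The higher set held WT normal-diet replicate 1, WT Western-diet replicate 1, EKO normal-diet replicate 2 and EKO Western-diet replicates 1 and 3. The receptor level of 6.84 was used as the bound below which a level is not separable from background.

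In WT fat the Western diet raised 27 of the 57 members and lowered 0 (limma, Benjamini-Hochberg adjusted p under 0.05), where 3.19% of all genes tested rose and 2.3% fell. The median log2 fold change was 0.43 over the members and -0.02 over all genes. All members but Mcm7 had a positive fold change. The arrays of the 2 diets did not overlap for 42 members, each higher on the Western diet, against 8.77% of all genes. Of the classes, 23 of 38 mitosis members rose, with a median of 0.55, and 4 of 19 replication members rose, with a median of 0.34. In EKO fat 0 members passed in either direction.

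**Figure D1:**
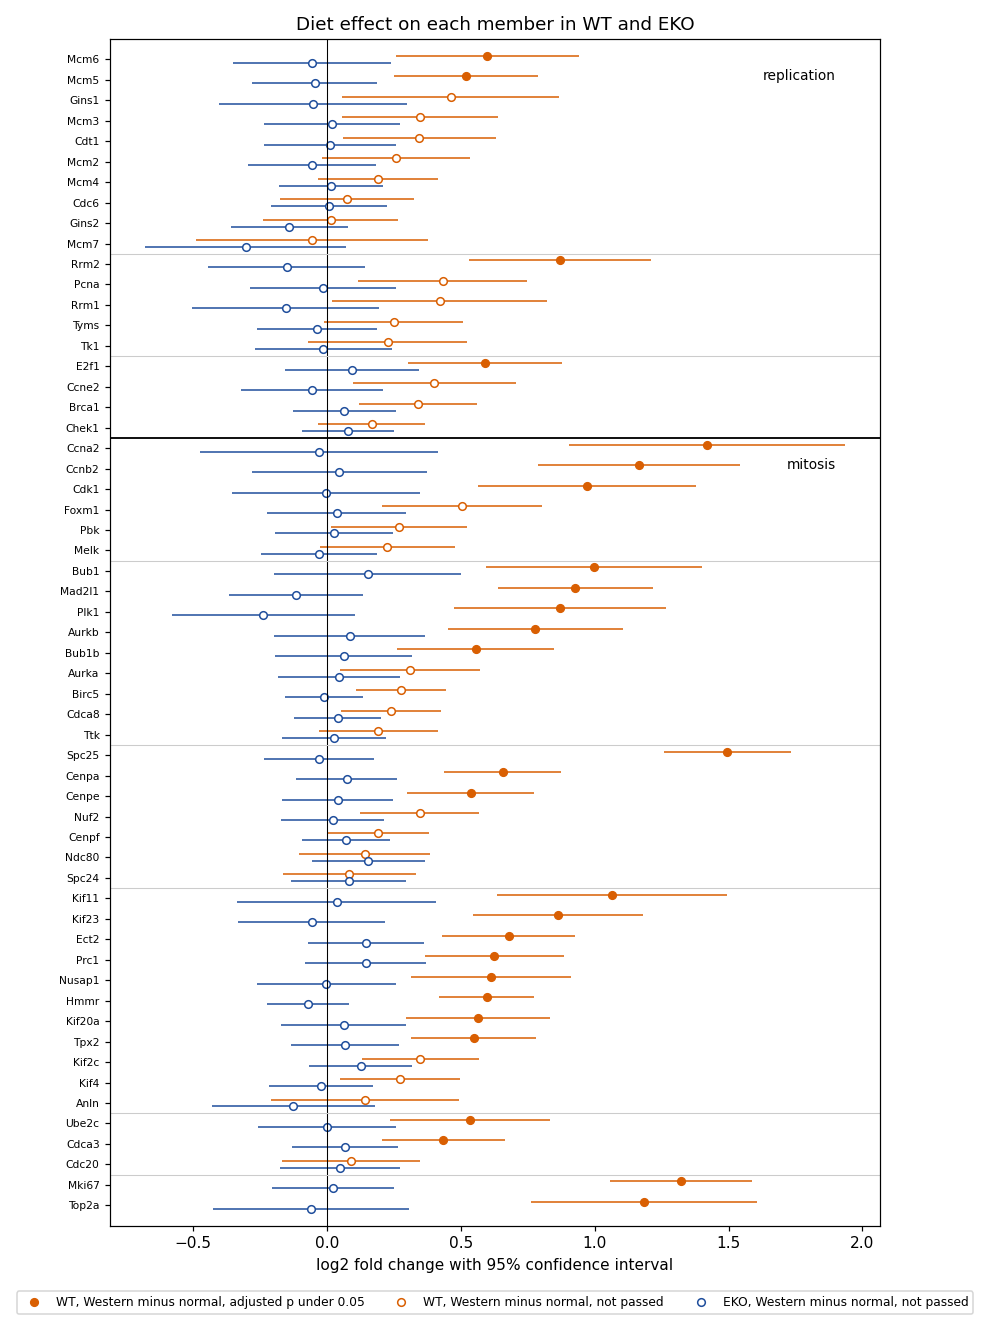
Log2 fold change (Western minus normal diet) of each of the 57 members in WT (orange) and EKO (blue), with 95% confidence intervals from the limma fit; filled points passed at an adjusted p under 0.05, and members are grouped by role. Members at or below the receptor level (6.84) are drawn as fitted. The 27 filled points all lie to the right of 0 in WT, and the EKO estimates lie between -0.30 and 0.15.

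The count depended on single arrays in both WT groups. Without WT Western-diet replicate 3 it was 16, without WT Western-diet replicate 2 it was 17, and without WT normal-diet replicate 3 it was 17. Aurkb, Bub1, Ccna2, Ccnb2, Cdk1, Cenpa, Ect2, Hmmr, Kif11, Kif23, Mad2l1, Mki67, Prc1, Rrm2, Spc25 and Top2a passed in each of the 6 fits that left out 1 WT array. With only the 6 WT arrays in the fit, 8 members passed, which were Ccnb2, Cenpa, Ect2, Hmmr, Mad2l1, Mki67, Spc25 and Top2a.

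Markers of other cell types also moved with the Western diet in WT fat. Of 14 macrophage markers 9 rose and 0 fell, with a median of 1.05, from Cd9 (0.58) and Fcgr1 (0.70) to Itgax (2.15) and Gpnmb (2.24). Their mean level was 9.74 to 9.99 in normal-diet WT, 10.75 to 11.22 in Western-diet WT and 9.44 to 10.29 over all EKO arrays. Within Western-diet WT replicate 1 was lowest and replicate 3 highest both for these markers and for the members. Of 8 mesothelial markers 7 fell, from Krt18 (-0.40) and Wt1 (-0.87) to Upk3b (-1.17) and Upk1b (-1.42).

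Adipocyte markers Slc2a4 and Adipoq fell by 0.60 and by 0.45, 2 of 9 measured. The median of the 9 was -0.12, and the 1 marker with a positive fold change (0.81) did not pass. Of 10 T and NK cell markers Cd3e rose (0.40), and of 9 epididymis and germ cell markers Sycp3, a meiotic chromosome protein, rose (2.51). None of the 5 B cell, 8 endothelial or 8 adipocyte progenitor markers passed. In whole fat, a larger number of dividing cells, more RNA per cell and a larger share of another cell type cannot be told apart, and the part of macrophage content in the members' rise was not tested.

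Mki67, the Ki-67 protein that coats mitotic chromosomes and is the usual stain for dividing cells, read 7.72, 7.83 and 7.93 on the WT normal-diet arrays and 8.84, 9.29 and 9.32 on the WT Western-diet arrays. EKO arrays read 7.79, 7.91, 7.94 and 7.84 on normal diet and 7.92, 7.81, 8.07 and 7.77 on Western diet. The WT Western-diet arrays stood above the other 11 arrays, which overlapped across diet and genotype. In WT the fold change was 2.50, or 1.32 ± 0.12 on the log2 scale (SE; limma adjusted p = 6.03e-05).

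Top2a, the topoisomerase that untangles sister chromatids, read 6.86, 6.93 and 6.96 in normal-diet WT and 7.50, 8.38 and 8.42 in Western-diet WT. EKO arrays read 6.93, 7.08, 7.05 and 6.97 on normal diet and 6.76, 6.89, 7.32 and 6.82 on Western diet. Each WT Western-diet array was again above all others, although replicate 1 lay closest to them and EKO Western-diet replicate 3 was the highest EKO array. The WT change was 1.18 ± 0.20 (SE; limma adjusted p = 0.00295). A second, dimmer probe set annotated to Top2a averaged 4.99 and 4.96 in the same WT groups, below the receptor level, and so gave no measurement.

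Of the mitotic cyclins, Cdk1 and their regulators, 3 of 6 measured members rose. Ccna2, the cyclin A of S phase and early mitosis, had the largest change of this role. It read 7.30, 7.38 and 7.33 in normal-diet WT and 7.97, 9.05 and 9.25 in Western-diet WT. Ccna2 in EKO read 7.37, 7.33, 7.42 and 7.53 on normal diet and 7.36, 7.23, 7.74 and 7.21 on Western diet. The WT Western-diet arrays did not overlap the others, with replicate 1 more than 1 log2 unit below replicates 2 and 3, and the WT change was 1.42 ± 0.24 (SE; limma adjusted p = 0.0033).

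Cdk1, the kinase that drives entry into mitosis, read 7.63, 7.95 and 7.76 in normal-diet WT and 8.21, 8.77 and 9.26 in Western-diet WT. EKO arrays read 7.69, 7.67, 7.87 and 7.85 on normal diet and 7.63, 7.72, 7.95 and 7.76 on Western diet. All WT Western-diet arrays were above all others, by a change of 0.97 ± 0.19 in WT (SE; limma adjusted p = 0.00797). Its cyclin B partner Ccnb2 rose by 1.16 ± 0.18 (SE; limma adjusted p = 0.00163).

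The transcription factor Foxm1, which drives mitosis genes, changed by 0.50 and missed the threshold (limma adjusted p = 0.0506), as did the kinase Pbk at 0.27. Melk, a kinase of dividing cells, had the lowest fold change of the role. It read 7.18, 7.06 and 7.11 in normal-diet WT, 7.43, 7.19 and 7.40 in Western-diet WT, 7.17, 7.35, 6.99 and 6.93 in normal-diet EKO and 7.19, 6.89, 7.15 and 7.09 in Western-diet EKO. Its WT groups were separate but close together, at 0.23 ± 0.12 (SE; limma adjusted p = 0.373), and the EKO arrays covered most of the same range.

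Of the mitotic kinases and spindle checkpoint proteins, 5 of 9 rose, and in all 9 every WT Western-diet array was above every WT normal-diet array. Bub1, a kinetochore kinase of the checkpoint, read 6.60, 6.24 and 6.60 in normal-diet WT and 6.99, 7.50 and 7.94 in Western-diet WT. Bub1 in EKO read 6.54, 6.57, 6.25 and 6.42 on normal diet and 6.58, 6.48, 6.81 and 6.51 on Western diet. All 3 WT Western-diet arrays were above the rest. Because the normal-diet WT mean lay below the receptor level, the rise is given as at least 1.83-fold (limma adjusted p = 0.00653). Such bounds were counted from the higher of each normal-diet array's own receptor mean and the gene's value.

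Mad2l1, the Mad2 protein that holds back anaphase, read 8.43, 8.20 and 8.45 in normal-diet WT and 8.96, 9.42 and 9.49 in Western-diet WT. Mad2l1 in EKO read 8.32, 8.31, 8.59 and 8.43 on normal diet and 8.20, 8.42, 8.37 and 8.17 on Western diet. The WT Western-diet arrays were separate from all 11 others, and the change was 0.93 ± 0.13 (SE; limma adjusted p = 0.00123). The Polo kinase Plk1 rose by 0.87, Aurkb, the kinase that corrects kinetochore attachment, by 0.78, and the checkpoint protein Bub1b by 0.55.

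Birc5 (survivin, 0.28, limma adjusted p = 0.055) and Cdca8 (borealin, 0.24), partners of Aurkb in the chromosomal passenger complex, did not pass. The same held for the centrosome kinase Aurka at 0.31. Ttk, the Mps1 kinase that sets off the checkpoint, had the lowest fold change and read 6.35, 6.22 and 6.37 in normal-diet WT and 6.41, 6.57 and 6.53 in Western-diet WT. EKO arrays read 6.36, 6.49, 6.21 and 6.29 on normal diet and 6.39, 6.21, 6.56 and 6.28 on Western diet. All 4 of its group means lay below the receptor level, so no fold is given.

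**Figure D2:**
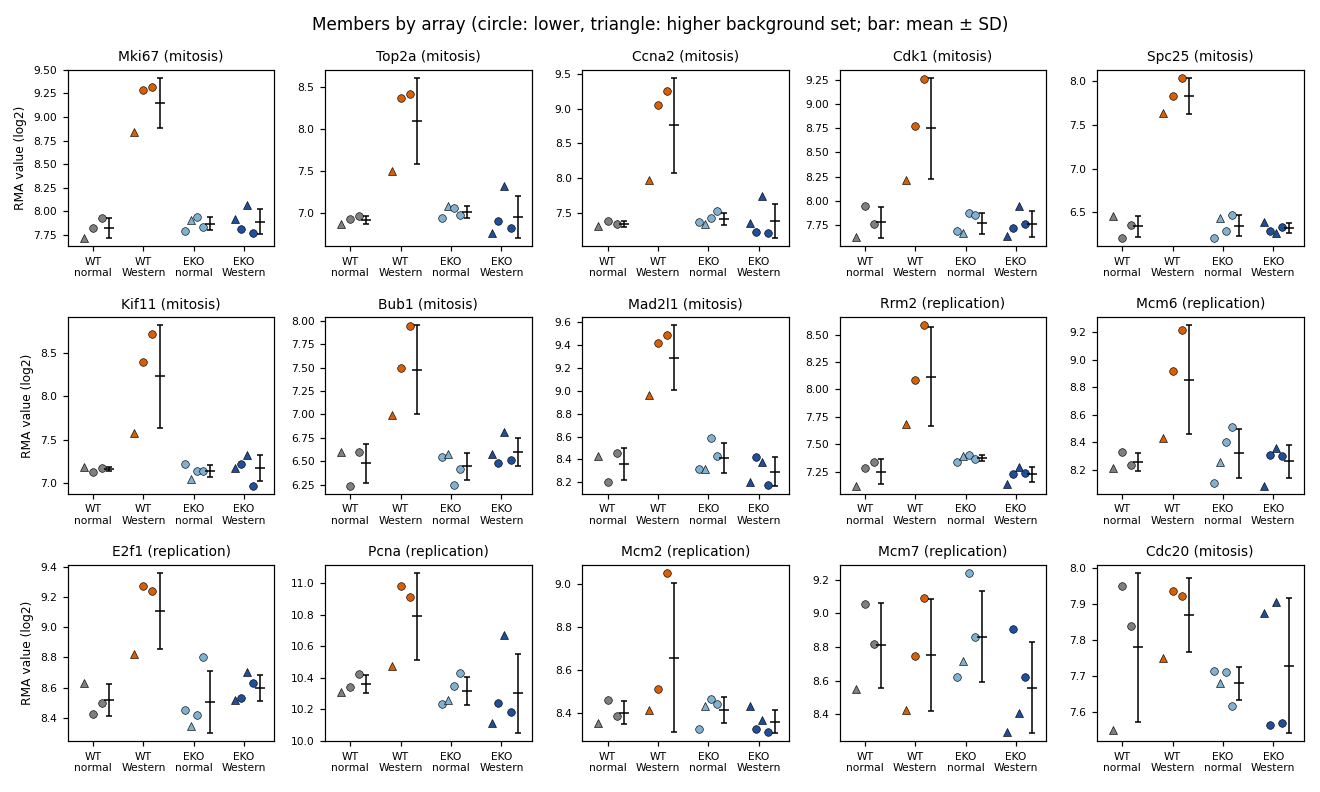
Log2 level of selected members on each of the 14 arrays, by genotype and diet, with 1 point per array (circles for the lower and triangles for the higher receptor background) and a bar for the group mean ± SD; the axis of each panel has its own range. The WT Western-diet arrays of Mki67, Spc25, Cdk1 and Rrm2 lie above all other arrays, while those of Mcm2 overlap the normal-diet arrays.

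Among kinetochore and centromere proteins 3 of 7 rose: Spc25, Cenpa, the histone that marks centromeres, and Cenpe, a kinetochore motor. Spc25, a subunit of the Ndc80 complex that grips microtubules, had the lowest adjusted p of all 57 members. It read 6.45, 6.21 and 6.35 in normal-diet WT and 7.63, 7.83 and 8.04 in Western-diet WT. Spc25 in EKO read 6.21, 6.44, 6.29 and 6.46 on normal diet and 6.39, 6.28, 6.26 and 6.33 on Western diet. The WT Western-diet arrays stood above all others, and the other 3 groups averaged below the receptor level. The rise was therefore at least 2.44-fold (limma adjusted p = 6.91e-06).

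The other 3 subunits of the same complex did not pass. Ndc80 (limma adjusted p = 0.675) and Nuf2 (limma adjusted p = 0.0734) averaged below the receptor level in all groups, so no size is given. Spc24 read 7.25, 7.24 and 7.30 in normal-diet WT, 7.40, 7.28 and 7.35 in Western-diet WT, 7.46, 7.32, 7.26 and 7.03 in normal-diet EKO and 7.59, 7.19, 7.33 and 7.27 in Western-diet EKO. Its groups overlapped, and the WT change was 0.08 ± 0.12 (SE; limma adjusted p = 0.879). Cenpa rose by 0.66, while Cenpf, a large kinetochore protein, changed by 0.19 without passing. Cenpe passed at an adjusted p of 0.0118 by limma, but both WT means lay below the receptor level, so its size is not given as a fold.

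Spindle motors, microtubule proteins and cytokinesis genes had 8 of 11 members that rose. Kif11, the motor that pushes spindle poles apart, read 7.19, 7.13 and 7.17 in normal-diet WT and 7.58, 8.39 and 8.72 in Western-diet WT. EKO arrays read 7.22, 7.05, 7.14 and 7.14 on normal diet and 7.17, 7.22, 7.32 and 6.97 on Western diet. The WT Western-diet arrays were higher than all others, with replicate 1 nearest to them, and the change was 1.07 ± 0.20 (SE; limma adjusted p = 0.00633).

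The midzone motors Kif23 and Kif20a rose by 0.86 and 0.56. Prc1, which bundles midzone microtubules, rose at least 1.46-fold, and Ect2, the activator of the cytokinetic ring, rose by 0.68. The spindle assembly proteins Tpx2 and Nusap1 rose by 0.55 and 0.61. Hmmr, a spindle protein and hyaluronan receptor, read 5.51, 5.39 and 5.49 in normal-diet WT, 5.93, 6.09 and 6.15 in Western-diet WT, 5.53, 5.58, 5.47 and 5.52 in normal-diet EKO and 5.50, 5.36, 5.51 and 5.45 in Western-diet EKO. Every one of its WT Western-diet arrays was above all others (limma adjusted p = 0.000967), although all levels were below the receptor level.

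The microtubule depolymerase Kif2c (0.35) did not pass. Nor did the chromosome motor Kif4 (limma adjusted p = 0.176), which averaged below the receptor level in all groups. Anln, the anillin scaffold of the cytokinetic ring, had the lowest change of the role and read 8.10, 8.26 and 8.53 in normal-diet WT and 8.12, 8.59 and 8.61 in Western-diet WT. Anln in EKO read 7.92, 8.28, 8.33 and 8.24 on normal diet and 7.87, 8.29, 7.90 and 8.21 on Western diet. All 4 groups of Anln overlapped, at 0.14 ± 0.16 in WT (SE; limma adjusted p = 0.827).

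Of 3 genes of the anaphase-promoting complex and its timing, Ube2c and Cdca3 rose. Ube2c, its ubiquitin-conjugating enzyme, read 8.28, 8.15 and 8.27 in normal-diet WT and 8.54, 9.04 and 8.72 in Western-diet WT. Ube2c in EKO read 8.21, 8.21, 7.95 and 8.44 on normal diet and 8.27, 8.04, 8.37 and 8.12 on Western diet. The WT groups were separate at 0.53 ± 0.14 (SE; limma adjusted p = 0.038), but EKO normal-diet replicate 4 lay close to the lowest WT Western-diet array. Ube2c lost the call when any WT array but WT Western-diet replicate 1 was left out.

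Cdc20, the activator of the complex, read 7.55, 7.95 and 7.84 in normal-diet WT, 7.75, 7.94 and 7.92 in Western-diet WT, 7.71, 7.68, 7.71 and 7.61 in normal-diet EKO and 7.87, 7.56, 7.90 and 7.57 in Western-diet EKO. Its groups overlapped and its WT change was 0.09 ± 0.12 (SE; limma adjusted p = 0.866). Without WT normal-diet replicate 1 that value was -0.025.

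In origin licensing and the replicative helicase, 2 of 10 members rose, Mcm5 (0.52) and Mcm6, both subunits of the helicase ring. Mcm6 read 8.21, 8.33 and 8.23 in normal-diet WT and 8.43, 8.92 and 9.21 in Western-diet WT. Mcm6 in EKO read 8.11, 8.26, 8.40 and 8.52 on normal diet and 8.09, 8.31, 8.36 and 8.30 on Western diet. The WT groups were separate, but WT Western-diet replicate 1 lay below EKO normal-diet replicate 4. The change was 0.60 ± 0.16 (SE; limma adjusted p = 0.0421), and Mcm6 lost the call when any WT array other than WT Western-diet replicate 1 was left out. Mcm5 passed only without WT normal-diet replicate 1 or WT Western-diet replicate 1 among those 6 fits.

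The subunit Mcm2 read 8.35, 8.46 and 8.39 in normal-diet WT and 8.41, 8.51 and 9.05 in Western-diet WT. Mcm2 in EKO read 8.32, 8.43, 8.46 and 8.44 on normal diet and 8.43, 8.33, 8.37 and 8.31 on Western diet. Replicate 3 was the one WT Western-diet array that stood well above the rest, the diets overlapped, and the change was 0.26 ± 0.13 (SE; limma adjusted p = 0.345). Mcm7 had the lowest change of all members and read 8.55, 9.06 and 8.82 in normal-diet WT and 8.42, 8.74 and 9.09 in Western-diet WT. Mcm7 in EKO read 8.62, 8.72, 9.24 and 8.86 on normal diet and 8.29, 8.91, 8.41 and 8.62 on Western diet. The WT groups overlapped at -0.06 ± 0.20 (SE; limma adjusted p = 0.974), with a sign that turned to 0.07 without WT normal-diet replicate 2 and to 0.11 without WT Western-diet replicate 1.

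The other subunits Mcm3 and Mcm4 changed by 0.35 and 0.19, the loaders Cdc6 and Cdt1 by 0.07 and 0.34, and the Gins complex subunit Gins2 by 0.01. Its partner Gins1 averaged below the receptor level in normal-diet WT, so no size is given. None of these 6 passed, with limma adjusted p from 0.179 to 0.987, and the arrays of the 2 diets overlapped for each of them. Within the helicase ring the 6 subunits therefore ranged from -0.06 to 0.60.

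Of the clamp and nucleotide supply genes 1 of 5 rose, Rrm2, the small subunit of ribonucleotide reductase that is made in S phase. It read 7.12, 7.28 and 7.34 in normal-diet WT and 7.68, 8.09 and 8.59 in Western-diet WT. Rrm2 in EKO read 7.34, 7.40, 7.40 and 7.37 on normal diet and 7.14, 7.23, 7.30 and 7.24 on Western diet. All WT Western-diet arrays were above the other 11, and the change of 0.87 ± 0.16 (SE; limma adjusted p = 0.00536) was the largest among replication members. It was also the one replication member that passed without WT Western-diet replicate 3.

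Pcna, the sliding clamp, read 10.31, 10.34 and 10.42 in normal-diet WT and 10.47, 10.98 and 10.91 in Western-diet WT. Pcna in EKO read 10.23, 10.26, 10.35 and 10.43 on normal diet and 10.11, 10.24, 10.67 and 10.18 on Western diet. The WT groups were separate but EKO Western-diet replicate 3 overlapped the WT Western-diet arrays. The WT change of 0.43 ± 0.15 did not pass (SE; limma adjusted p = 0.117). A second Pcna probe set, annotated to the same transcripts, gave 0.48 for the same difference, but its WT diets overlapped. Unlike the set used, it was also higher on Western diet in EKO, with means of 9.15 on normal and 9.68 on Western diet. Those EKO arrays overlapped, and the WT means were 9.80 and 10.28. On its own the second set was not tested.

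Tk1, the thymidine kinase of the salvage route, had the lowest change of the role and read 8.42, 8.17 and 8.27 in normal-diet WT, 8.68, 8.49 and 8.36 in Western-diet WT, 8.39, 8.56, 8.14 and 8.19 in normal-diet EKO and 8.61, 8.16, 8.23 and 8.21 in Western-diet EKO. The arrays overlapped in WT, at 0.23 ± 0.14 (SE; limma adjusted p = 0.489). A second Tk1 probe set gave 0.26. In EKO that set averaged 7.64 on normal and 7.85 on Western diet, with overlapping arrays. The set used averaged 8.32 and 8.30 there. Whether each set of Pcna and Tk1 reads the gene or a near-identical copy was not settled by the annotation. Neither Rrm1, the large reductase subunit (0.42), nor Tyms, thymidylate synthase (0.25), passed.

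Among 4 genes of S phase entry and its checkpoint, E2f1 rose. E2f1, a transcription factor for S phase genes, read 8.63, 8.43 and 8.50 in normal-diet WT and 8.82, 9.27 and 9.24 in Western-diet WT. E2f1 in EKO read 8.45, 8.34, 8.42 and 8.80 on normal diet and 8.52, 8.53, 8.70 and 8.63 on Western diet. WT Western-diet replicate 1 lay close to EKO normal-diet replicate 4, and replicates 2 and 3 were above all other arrays, for a change of 0.59 ± 0.13 (SE; limma adjusted p = 0.0189). E2f1 lost the call without WT normal-diet replicate 2 or 3, or without WT Western-diet replicate 2 or 3.

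Ccne2, the cyclin E of S phase entry, which averaged below the receptor level in normal-diet WT (limma adjusted p = 0.133), and the repair gene Brca1 (0.34, limma adjusted p = 0.0755) did not pass although their WT arrays did not overlap. Chek1, the checkpoint kinase that responds to stalled replication, read 7.22, 7.15 and 7.23 in normal-diet WT and 7.35, 7.35 and 7.40 in Western-diet WT. EKO arrays read 7.13, 7.31, 7.02 and 7.02 on normal diet and 7.09, 7.27, 7.30 and 7.13 on Western diet. Its WT groups were separate by a small step, at 0.17 ± 0.09 (SE; limma adjusted p = 0.43).

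Replication and mitosis members thus differed in how many passed and by how much they moved in WT. The median log2 fold change was 0.21 higher in mitosis members, and 0.15 to 0.30 higher when 1 array at a time was left out. Arrays in separate diet groups did not overlap for 34 of 38 mitosis and 8 of 19 replication members. A further count left out Ccna2, Top2a, Foxm1, Melk and Pbk. These also act in or are made during S phase or are general markers of dividing cells. Of the 33 mitosis members kept, 21 rose and their median was 0.55. Mki67, the usual stain for dividing cells, was among those kept. This difference between classes is a description, since the members were listed with results of these arrays known. Probe brightness moved with it: 9 of 38 mitosis and 2 of 19 replication members had at least 1 WT mean at or below the receptor level, and its part in the result was not tested.

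The promoter letters shown above can be set beside these calls. Of the risen members with a RefSeq entry, 20 of 23 held CCAAT in the 250 bases before the gene start, and E2f1, Mad2l1 and Nusap1 did not. Of the members with an entry that did not pass, 12 of 23 held it. TTTGAA was held by 8 of the 23 risen members, all of them mitosis genes with CCAAT as well (Ccnb2, Cdk1, Kif11, Prc1, Ect2, Ube2c, Mki67 and Top2a), and by 3 of the 23 others (Mcm2, Cdc20 and Kif2c). The search says only which letters lie in this window.

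**Figure D3:**
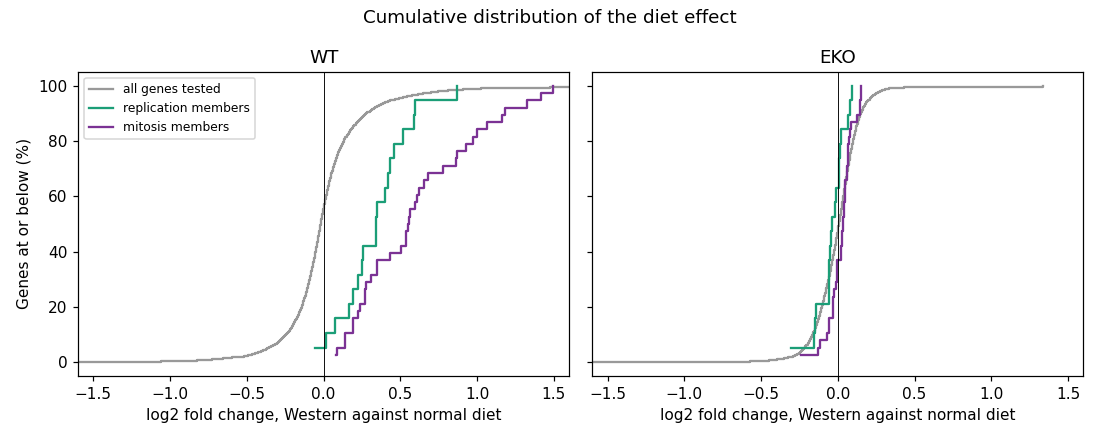
Cumulative percentage of genes by log2 fold change (Western minus normal diet) for replication members, mitosis members and all 19937 genes tested, in WT (left) and EKO (right). In WT the curve of all genes is centred near 0 (median -0.02), that of replication members lies to its right (0.34) and that of mitosis members further right (0.55). In EKO the medians are 0.01 for all genes, -0.04 for replication members and 0.04 for mitosis members.

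The shift was carried by all 3 WT Western-diet arrays to different degrees. Relative to the WT normal-diet means, the median difference of the replication members was 0.08, 0.32 and 0.56 in replicates 1, 2 and 3. For mitosis members it was 0.30, 0.66 and 0.71. Mitosis members were shifted further than replication members in each array. Replicate 1 was the lowest of its group in 47 of 57 members, and was so in 44.7% of all genes and in 80.5% of the genes that rose. It was also the WT Western-diet array with the higher receptor background.

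Within the higher background set, WT Western-diet replicate 1 minus WT normal-diet replicate 1 had a median of 0.21 over the members. Of these 54 of 57 were positive, against 9834 of the 19937 genes tested. Within the lower set the median was 0.62, with 55 of 57 positive, against 8527 of all genes. The 636 genes that rose in WT also had a smaller median in the higher set, 0.51 against 0.88. Mitosis members had medians of 0.26 and 0.70 and were all positive in both sets. Replication members had medians of 0.14 and 0.45. Mki67 differed by 1.12 and 1.42 and Ccna2 by 0.67 and 1.79 in the higher and lower set.

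**Figure D4:**
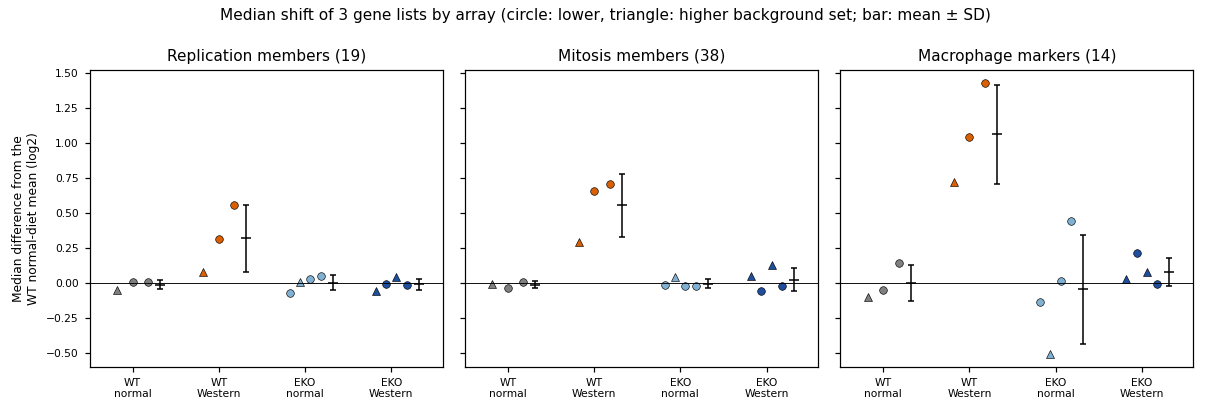
Median log2 difference from the WT normal-diet mean over the replication members, the mitosis members and 14 macrophage markers, with 1 point per array (circles for the lower and triangles for the higher receptor background) and a bar for the group mean ± SD. The 3 WT Western-diet arrays are the highest in all 3 panels, and the EKO arrays of both diets lie near 0 for the members.

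In EKO fat the diet moved none of the members past the threshold. The fitted log2 differences ran from -0.30 (Mcm7) to 0.15 (Ndc80, below the receptor level in all groups), with medians of -0.04 for replication and 0.04 for mitosis members, and 0 of 57 had an unadjusted p under 0.05. Among all genes tested 0 (0%) passed by limma, with 883 at an unadjusted p under 0.05. The 95% confidence intervals of the members reached from -0.68 to 0.50, so that diet effects of the size of Mki67 or Ccna2 in WT lay outside the intervals of those genes in EKO. Rrm2 was the 1 member whose EKO arrays did not overlap, lower on the Western diet, against 1.59% of all genes. EKO Western-diet replicate 3 was the highest of the 8 EKO arrays in 21 members, Mki67, Top2a, Ccna2 and Cdk1 among them. The share of all genes for which it was highest was not computed. It also had the highest receptor background of all arrays (6.84), and the part of that background in these values was not tested.

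Between EKO and WT fat on normal diet 0 members passed. Fitted differences ran from -0.21 (Ndc80) to 0.16 with a median of 0.01, and 0 of 57 members had an unadjusted p under 0.05. Of all genes 0.00502% passed, which is Apoe alone, and 226 had an unadjusted p under 0.05. The 95% confidence intervals of the members reached from -0.44 to 0.56. Ccnb2, at 0.16, was the 1 member whose arrays did not overlap, higher in EKO, against 0.848% of all genes.

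On Western diet, 27 members were lower in EKO than in WT fat and 0 were higher (limma, Benjamini-Hochberg), where 4.05% of all genes were lower and 1.64% higher. The median was -0.46 over the members, -0.31 over replication and -0.52 over mitosis members. The count was 14 without WT Western-diet replicate 3, 16 without WT Western-diet replicate 2 and 41 without WT Western-diet replicate 1. For 35 members every EKO array lay below every WT array, against 8.71% of all genes. This comparison and the diet effect in WT share the 3 WT Western-diet arrays, so their values are given side by side and not as separate evidence. In the same comparison 10 of 14 macrophage markers were lower in EKO and 0 higher, with a median of -0.96 and all 14 negative. Of 8 mesothelial markers 2 were higher in EKO and 0 lower, with a median of 0.56. Adipocyte markers had 2 of 9 higher and 1 lower, with a median of 0.26. B cell markers had 1 of 5 lower, and epididymis and germ cell markers 1 of 9 lower. None of the T and NK cell, endothelial or adipocyte progenitor markers passed. The part of these cell types in the members' difference was not tested.

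The 4 replication members that were lower in Western-diet EKO were Mcm5 (-0.55), Mcm6 (-0.59), Rrm2 (-0.89) and E2f1 (-0.51). Their WT diet effects were 0.52, 0.60, 0.87 and 0.59. Among the 23 mitosis members that were lower, the largest differences with both groups above the receptor level were those of Ccna2 (-1.37 ± 0.23, SE; limma adjusted p = 0.0029) and Mki67 (-1.26 ± 0.12, SE; limma adjusted p = 4.07e-05). Spc25 had the lowest adjusted p by limma (1.89e-06), with an EKO mean below the receptor level. Birc5 passed here at -0.28 (limma adjusted p = 0.0396) and not in the WT diet comparison, and Cdca3 passed there and missed the threshold here at -0.35 (limma adjusted p = 0.055). Of the members given array by array, Mcm6, E2f1, Ube2c and Bub1 each lost the call without WT Western-diet replicate 3, and the first 3 also without WT Western-diet replicate 2. E2f1 and Ube2c further lost it without some of the EKO Western-diet arrays, and Mcm6 when any of the 4 was left out.

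The test of whether the diet effect differed between genotypes, the interaction of diet and genotype, was passed by 5 members, against 0.336% of all genes in the same direction. In each the effect was lower in EKO. Mki67 differed by -1.30 ± 0.16 (SE; limma adjusted p = 0.00242) and Mad2l1 by -1.04 ± 0.18 (SE; limma adjusted p = 0.0176). Spc25 (limma adjusted p = 0.00021) averaged below the receptor level in 3 of 4 groups and Hmmr (limma adjusted p = 0.0146) in all 4, so neither is given a size. Rrm2 differed by -1.02 ± 0.21 (SE; limma adjusted p = 0.0497), just inside the threshold, and it lost the call when any array but WT Western-diet replicate 1 was left out.

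Ccnb2 and Top2a, both at an adjusted p of 0.0522 by limma, and Kif23, at 0.0532, lay just outside. Mad2l1 and Hmmr lost the call without WT normal-diet replicate 2, WT Western-diet replicate 2 or WT Western-diet replicate 3, and Mad2l1 also without EKO Western-diet replicate 4. The count was 25 without WT Western-diet replicate 1, 3 without EKO Western-diet replicate 4, and 2 without WT normal-diet replicate 2, WT Western-diet replicate 2 or WT Western-diet replicate 3. Over all members the median difference was -0.47, against 0.03 over all genes. An unadjusted p under 0.05 was found for 33 of 57 members, against 2162 of 19937 genes tested. Of the macrophage markers 1 of 14 passed the interaction test, all 14 were negative and the median was -0.94, and their part in the members' values was not tested. The diet effect was thus not shown to differ between genotypes for the other 52 members.

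Further genes of the same processes were listed apart from the members, also with earlier results of these arrays known. Over all genes tested, 3.19% rose in WT on the Western diet, 2.3% fell and the median was -0.02. Of 41 other replication genes measured, 4 rose in WT on the Western diet and 0 fell, with a median of 0.13. They were the polymerase and primase subunits Pole2 (0.38) and Prim2 (0.63), the clamp loader Rfc4 (0.63) and Dbf4 (0.58), the activator of the Cdc7 kinase. Of 57 other mitosis genes 19 rose and 0 fell, with a median of 0.31. The largest changes were those of Stmn1, a tubulin-binding protein (1.19), and Cks2, a Cdk1 partner (0.92), and the smallest those of Tacc3 (0.37) and Kif22 (0.42), both spindle proteins.

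In EKO 0 genes of either list passed. Of 11 G1 cyclins, kinases and activators, Ccne1 (0.56) and Ccnd1 (0.63) rose in WT. Of 16 inhibitors and repressors of the cell cycle, Cdkn2b, an inhibitor of the cyclin D kinases, rose by 0.84 and Ccng1, a p53 target, by 0.45. The median of that list was -0.07.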

How the data were processed

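The values deposited by the authors are log2 expression values. The submitters' processing notes name RMA, and no source used here gives its version, annotation or settings. Total RNA was labelled with a whole-transcript kit for Affymetrix arrays, per the labels. Of 34760 rows, 21640 carried 1 gene symbol in the platform annotation, 1321 several and 11799 none; 21553 of the named rows matched RefSeq, and 0 symbols changed. A gene with several rows was represented by the brightest on average, giving 19937 genes.

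All were fitted with limma 3.58.1 (R 4.3.3), with 1 mean per group over 14 arrays, eBayes, and two-sided tests adjusted by Benjamini-Hochberg over all genes at 0.05. The fit has 10 residual degrees of freedom and was tested on simulated data. Intervals are 95% confidence intervals. The 4 group contrasts and the interaction were tested; the lists and the 2 classes were only counted. The number of arrays limits the precision.

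Members and gene lists were chosen with earlier results of these data known. Values of every array are given for Mki67, Top2a, Cdk1, Pcna and Mcm2 and, in each of 9 roles, for the member with the largest and the lowest WT diet effect; from each other list up to 4 genes with the largest and smallest changes among those that passed are named. The size of a single gene's WT diet effect is given only where a group mean exceeded the highest array mean of 1204 receptor probe sets (6.84). Where the normal-diet mean was not above it, the size is a bound ("at least"). That bound is not taken from 6.84. On each WT normal-diet array it takes the higher of the gene's value and that array's own receptor mean, and averages these. Medians, ranges, counts and plots keep every member's fitted value. Promoters are RefSeq's (GRCm38.p6). Alternatives changed the normalization, the prior, array weights, the filter on dim genes, the probe set rule, blocks, the arrays fitted and the replicates included. Figures were drawn with matplotlib 3.10.9.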

Additional observations from a re-analysis of the deposited data

Results flagged for a closer look

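The diet effect differed between genotypes, by the interaction term of the limma fit, for 5 members, in each with a lower effect in EKO. The difference (EKO minus WT, log2) was -1.30 for Mki67, -1.04 for Mad2l1 and -1.02 for Rrm2. The fitted terms of -1.53 for Spc25 and -0.67 for Hmmr are not sizes of change, because Spc25 averaged below the receptor level in 3 of 4 groups, all but Western-diet WT, and Hmmr in all 4.

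Of 46 sets of 4 EKO arrays checked over the members given array by array, 1 had an array that stood apart by Dixon's test, where chance gives about 1 in 20. Tk1 in EKO Western-diet replicate 1 read 8.61, against 8.23 for the next array.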

How the results depend on the processing

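Counts of members past the threshold in the 2 comparisons within EKO or on normal diet stayed at 0 under every alternative run. The WT diet count of 27 became 45 with array weights, 8 with only the WT arrays, and 5 without the dimmest 50% of genes, where 12 members remained in the fit; leaving out 1 array gave 16 to 36. The Western-diet genotype count of 27 became 51 with array weights and 6 without the dimmest 50% of genes; leaving out 1 array gave 14 to 41. The interaction count of 5 became 10 with each array centred on its median, 10 with quantile normalization, 8 with a trended robust prior, 36 with array weights, 1 without the dimmest 50% of genes, 11 with the background set as a block and 22 with only the lower background set; leaving out 1 array gave 2 to 25. The cause of the changes with array weights, prior and normalization was not tested. The class difference of 0.21 kept its direction in every fit where it was computed. It and the medians were not computed with array weights, the trended robust prior, the filters on dim genes or only the groups compared. Elsewhere the medians moved by less than the spread of the arrays. The 5 WT diet calls without the dimmest 50% of genes were E2f1, Mcm5 and Mcm6 of replication and Aurkb and Mad2l1 of mitosis. Among the members given array by array, leaving out 1 array turned the sign of the WT diet effect of Cdc20, whose range was -0.025 (without WT normal-diet replicate 1) to 0.18, and of Mcm7, whose range was -0.23 to 0.11, with 0.07 without WT normal-diet replicate 2 and 0.11 without WT Western-diet replicate 1. The replicate numbers were not taken to pair the arrays, since they share no stated animal, litter or batch. Deviations of same-numbered arrays correlated at 0.46, 0.19 and 0.01 between the WT diets and at 0.20, -0.59, -0.42 and 0.45 between the EKO diets. Between genotypes they correlated at 0.16, -0.11 and 0.21 on normal diet and at 0.64, 0.49 and -0.11 on Western diet. These correlations do not decide whether arrays were paired. With the replicate number as a block, 26 members passed for the WT diet, 30 for genotype on Western diet and 9 for the interaction. Background limits 11 members with a WT mean at or below the receptor level.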
